A study of Mus musculus with 12 samples.

Results

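The genes described here are 10 that encode proteins of the lytic granule or inhibitors of the proteases it carries. They are Nkg7, Lamp1, Ctsw, Ctsc, Srgn and Cd63, and the serpins Serpinb9, Serpinb9b, Serpinb6a and Serpinb6b. The genes were chosen by name, with earlier results of these data known. Each was read by the brightest probe set that the platform annotation pairs with that symbol alone, which here was 1 probe set per gene. All 10 were found among 19938 genes measured. None had a mean level over the 12 arrays below the array medians, which 9166 of the 19938 genes had. Cd63 met this only through the KY-2 arrays, since it lay below the medians on every KY-1 array.

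The cells were KY-1 and KY-2, natural killer (NK) cell lines of the mouse. All of them lacked p53 (genotype p53KO) and grew with human IL-15 at 200 U/mL, so both features were shared by the controls. Each line was transduced with a GFP vector, as the control, or with GFP-P2A-FLAG-Myb, which adds the transcription factor Myb, and GFP+ cells were sorted. The KY-1 cells gave 3 GFP and 4 Myb arrays and the KY-2 cells 2 GFP and 3 Myb arrays of total RNA. The arrays were Affymetrix arrays, and levels are given as deposited, in log2 units, so that 1 unit is a 2-fold difference.

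Cytotoxic lymphocytes store granzymes and perforin in lytic granules, which are secretory lysosomes. When the cell meets a target, granules travel to the contact site and fuse with the plasma membrane, perforin opens the way and granzymes enter the target. Granzymes are held on serglycin, a proteoglycan encoded by Srgn, and are activated in the granule by cathepsin C, encoded by Ctsc. Serpins of clade B stay in the cytosol of the killer cell, where several of them trap granzymes that leak out.

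Among the KY-1 arrays, GFP arrays 1 and 2 and Myb arrays 3 and 4 were closer to each other than separate samples were. The robust SD of their log2 differences was 0.0433 to 0.0469, against 0.102 to 0.172 for every other pair within a group. The mean of each close pair therefore entered as 1 replicate, which left 2 GFP and 3 Myb replicates per line. The labels do not state whether replicates came from different cultures, so a p-value here reflects the spread among these samples alone, which may be technical. The KY-1 arrays also fell into 2 sets that the labels do not name, with GFP arrays 1 and 2 varying together with Myb arrays 3 and 4, and GFP array 3 with Myb arrays 1 and 2. These sets were read from deviations from each group mean, which cancel within a group, so the split within a group was partly fixed beforehand. The robust SD of Myb arrays 1 and 2 was 0.136, against 0.143 for Myb arrays 1 and 3. Myb itself was at 7.99 ± 0.07 (SD, n = 2) with GFP and 9.57 ± 0.02 (SD, n = 3) with the vector in KY-1, and at 5.05 ± 0.07 (n = 2) and 9.74 ± 0.07 (n = 3) in KY-2. Of 16 NK cell markers, 11 or 12 lay above a level of 8 in each group, but Ncr1, a defining NK receptor, was at 5.43 and 5.34 in the KY-2 groups, and Eomes and Itga2 were not above 8 in any group. Myeloid markers were above 8 for 0 of 13 genes, and mast cell and basophil markers for 1 of 12 at most, the receptor gene Kit.

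In KY-2, several of the genes fell with the Myb vector and none rose. Ctsc, Serpinb9, Serpinb9b and Serpinb6b fell, which was 4 of the 10 genes at an adjusted p under 0.05 (limma, adjusted over all 19938 genes). Across all genes 1.55% fell and 1.28% rose in that line. The median difference of the 10 genes was -0.33, against 0.01 for all genes. In KY-1 only Cd63 fell and none of the 10 rose, where 0.612% of all genes fell and 0.612% rose, and the median was -0.08 against -0.00. Calls were more common among brighter genes. In the fit of only genes with a mean above 6, 758 of 8869 were called either way in KY-2 and 442 in KY-1. Of the genes described here 5 fell in KY-2 and 0 in KY-1 in that fit, where Cd63 was not tested. Averaged over both lines, Ctsw, Cd63 and Serpinb9b fell and 0 rose, while 1.58% of all genes fell and 1.52% rose. For Serpinb9b that average joins opposite signs, as it was at 0.26 in KY-1, and Cd63 lay below the array medians in KY-1. The averaged calls on Ctsw and Serpinb9b were lost in 11 and 13 of 19 settings, and that on Cd63 held in all 18.

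In KY-2 all 3 Myb arrays lay below both GFP arrays for 10 of the 10 genes. Of all genes 14.6% were separated downwards in that line and 16.4% upwards. After a second quantile normalization of the arrays the count was 9 of 10, because Lamp1 turned from -0.01 to 0.02. In KY-1 the 4 Myb arrays lay below the 3 GFP arrays for Ctsw and Cd63 and above them for Srgn and Serpinb9b, where 9.88% and 9.16% of all genes were separated in those directions. The KY-2 count of 4 rested on every KY-2 array: without any 1 of the 5, only 1 call was left, that of Serpinb9b. It was 2 without KY-1 GFP arrays 1 and 2, KY-1 GFP array 3 or KY-1 Myb array 1, which share the estimate of the spread.

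**Figure D1:**
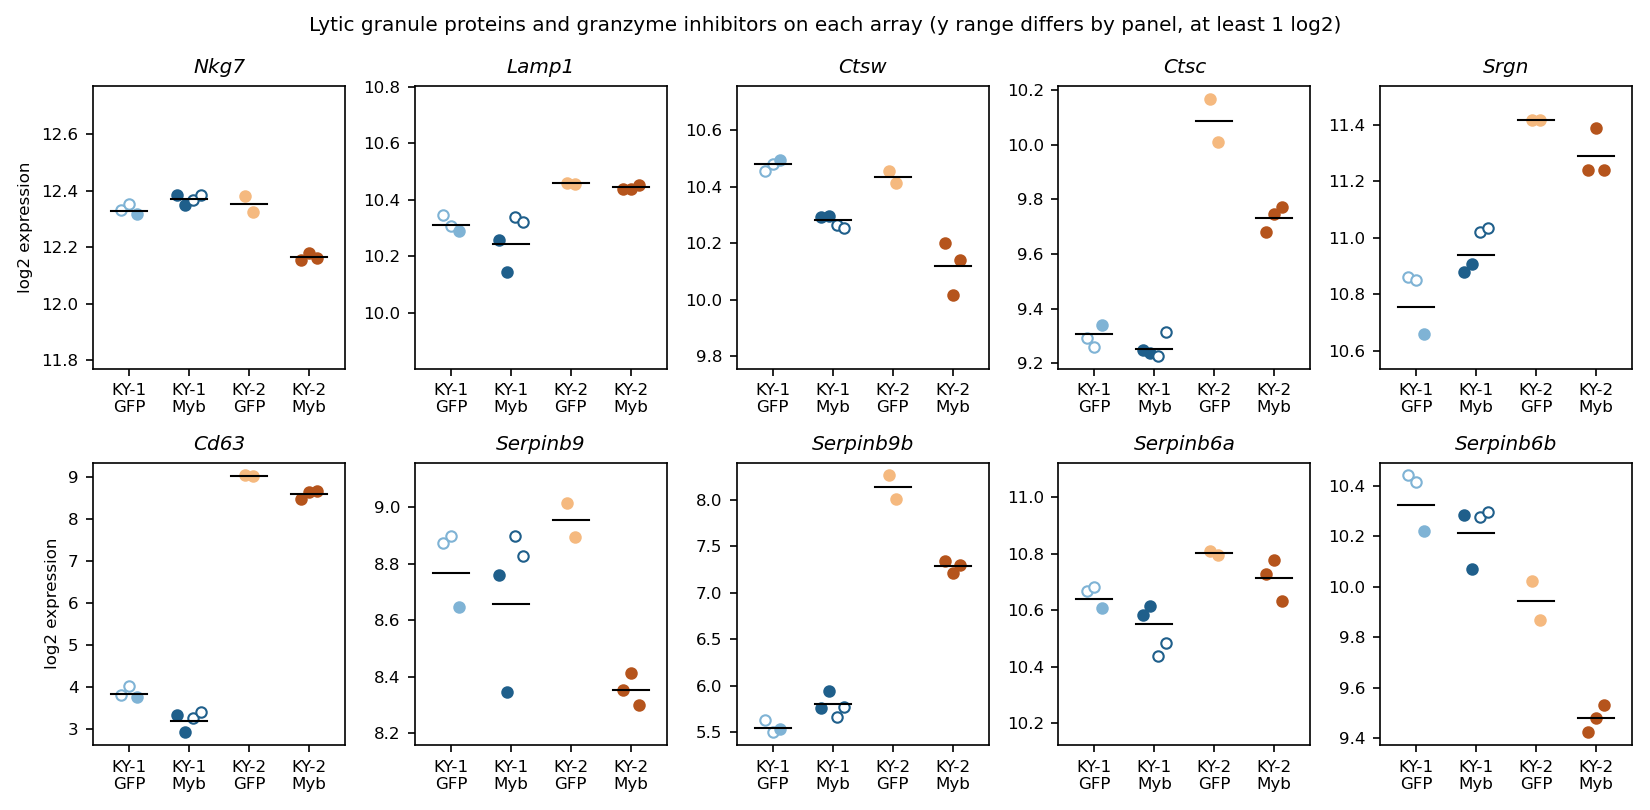
Log2 expression of the 10 genes (y axis, a range per panel) on each of the 12 arrays, by line and vector (x axis); open circles are the close arrays averaged into 1 replicate, and the bar is the mean over replicates. Cd63 lies between 2.91 and 4.02 in KY-1 and between 8.47 and 9.05 in KY-2, and in KY-2 every Myb array lies below both GFP arrays in each panel.

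Nkg7 and Lamp1 encode membrane proteins of the granule. Nkg7 is needed for full degranulation, and Lamp1, also called CD107a, appears on the cell surface when granules fuse and is a common readout of that step. Nkg7 read 12.33, 12.35 and 12.32 on the KY-1 GFP arrays, 12.39, 12.35, 12.37 and 12.39 on the KY-1 Myb arrays, 12.38 and 12.33 on the KY-2 GFP arrays, and 12.16, 12.18 and 12.16 on the KY-2 Myb arrays. The KY-2 Myb arrays were the low ones, and the other 3 groups overlapped. The Myb difference in KY-2 was -0.19 ± 0.07 (SE, limma adjusted p = 0.262), and in KY-1 it was 0.04 ± 0.07 (adjusted p = 0.901), with a 95% interval of -0.11 to 0.20. Between the lines with the Myb vector, Nkg7 was lower in KY-2 by 0.21 log2 units, a 1.15-fold difference (limma adjusted p = 0.0278).

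Lamp1 differed least with Myb in KY-2 among the 10 genes. Its means were 10.31 ± 0.03 (SD, n = 2) and 10.24 ± 0.09 (SD, n = 3) in KY-1 and 10.46 ± 0.0037 (SD, n = 2) and 10.44 ± 0.0086 (SD, n = 3) in KY-2. The Myb difference was -0.07 ± 0.08 (SE, limma adjusted p = 0.844) in KY-1 and -0.01 ± 0.08 (adjusted p = 0.971) in KY-2, with 95% intervals of -0.24 to 0.11 and -0.19 to 0.16. Such intervals leave room for changes of up to 0.24 log2 units, so a change of the size seen for Ctsc in KY-2 lies outside them. Lamp1 was higher in KY-2 by 0.15 ± 0.09 with GFP (adjusted p = 0.242) and by 0.20 ± 0.07 with Myb (adjusted p = 0.0502), neither of which passed the threshold.

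Ctsw encodes cathepsin W, also known as lymphopain, a cysteine protease found mainly in NK cells and cytotoxic T cells. It read 10.46, 10.48 and 10.49 on the KY-1 GFP arrays and 10.29, 10.30, 10.26 and 10.25 on the KY-1 Myb arrays. In KY-2 it read 10.46 and 10.41 with GFP and 10.20, 10.02 and 10.14 with Myb. The Myb arrays were below the GFP arrays in both lines without overlap. Averaged over the lines Ctsw fell by 0.26 ± 0.06 log2 units (SE, limma adjusted p = 0.0327), a 1.19-fold difference. Taken by line it was -0.20 ± 0.08 (adjusted p = 0.376) in KY-1 and -0.31 ± 0.08 (adjusted p = 0.0676) in KY-2, and the lines' Myb differences did not pass a test against each other (adjusted p = 0.799).

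Ctsc, the protease that activates granzymes, was set apart by line. It read 9.29, 9.26 and 9.34 with GFP and 9.25, 9.24, 9.23 and 9.31 with Myb in KY-1, where the groups overlapped. In KY-2 it read 10.17 and 10.01 with GFP and 9.68, 9.75 and 9.77 with Myb. It fell in KY-2 by 0.36 ± 0.08 log2 units (SE, limma adjusted p = 0.0392), a 1.28-fold difference, and in KY-1 it was at -0.06 ± 0.08 (adjusted p = 0.876). The difference between these effects did not pass the threshold (-0.30 ± 0.11, adjusted p = 0.366). The KY-2 call on Ctsc was lost in 15 of 20 settings. KY-2 held more Ctsc transcript than KY-1 with either vector, by 0.78 ± 0.09 with GFP (limma adjusted p = 4.51e-05) and 0.48 ± 0.07 with Myb (adjusted p = 0.000307), so the order was KY-2 GFP, KY-2 Myb and then both KY-1 groups, which did not differ beyond their spread.

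Srgn, the proteoglycan that holds granzymes, showed differences of opposite sign with Myb in the 2 lines, none of which passed. In KY-1 it read 10.86, 10.85 and 10.66 with GFP and 10.88, 10.91, 11.02 and 11.03 with Myb. In KY-2 it read 11.42 and 11.42 with GFP and 11.24, 11.39 and 11.24 with Myb. The KY-1 Myb arrays were just above the KY-1 GFP arrays, and within the 2 sets of KY-1 arrays the difference was 0.17 and 0.24. The Myb difference was 0.18 ± 0.09 (SE, limma adjusted p = 0.517) in KY-1 and -0.12 ± 0.09 (adjusted p = 0.656) in KY-2. Srgn was higher in KY-2 than in KY-1 by 0.66 ± 0.10 with GFP (limma adjusted p = 0.000442) and by 0.35 ± 0.08 with Myb (adjusted p = 0.00607).

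Cd63 encodes a tetraspanin of late endosomes and secretory lysosomes, and it separated the lines more than any other of the 10 genes. In KY-1 it read 3.81, 4.02 and 3.74 with GFP and 3.32, 2.91, 3.25 and 3.39 with Myb. In KY-2 it read 9.05 and 9.02 with GFP and 8.47, 8.66 and 8.68 with Myb. Every KY-1 array lay below the array medians, which were 5.31 to 5.42, and every KY-2 array lay above them. Cd63 was higher in KY-2 by 5.21 ± 0.14 log2 units with GFP (SE, limma adjusted p = 7.06e-10) and by 5.42 ± 0.12 with Myb (adjusted p = 7.66e-11). The table carries no detection calls, so the size of a difference against levels as low as those of KY-1 is uncertain, and no fold is given.

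With Myb, Cd63 fell by 0.54 ± 0.09 log2 units averaged over both lines (SE, limma adjusted p = 0.0081), and the Myb arrays lay below the GFP arrays in each. In KY-1 it fell by 0.64 ± 0.13 (adjusted p = 0.0394), between 2 levels that are both below the array medians. In KY-2 the difference was -0.43 ± 0.13 (adjusted p = 0.138), and the lines' Myb differences were not told apart (0.21 ± 0.18, adjusted p = 0.761). Within the 2 sets of KY-1 arrays the difference was -0.59 and -0.62. With the sets as a block, a fit added after the data were seen, it was -0.61 with an adjusted p = 0.0579. The KY-1 call was also lost when any 1 KY-1 replicate was left out and without KY-2 GFP array 1 or 2 or KY-2 Myb array 2 or 3, so that 0 of the 10 genes were called there. The averaged call held in all 18 settings run.

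**Figure D2:**
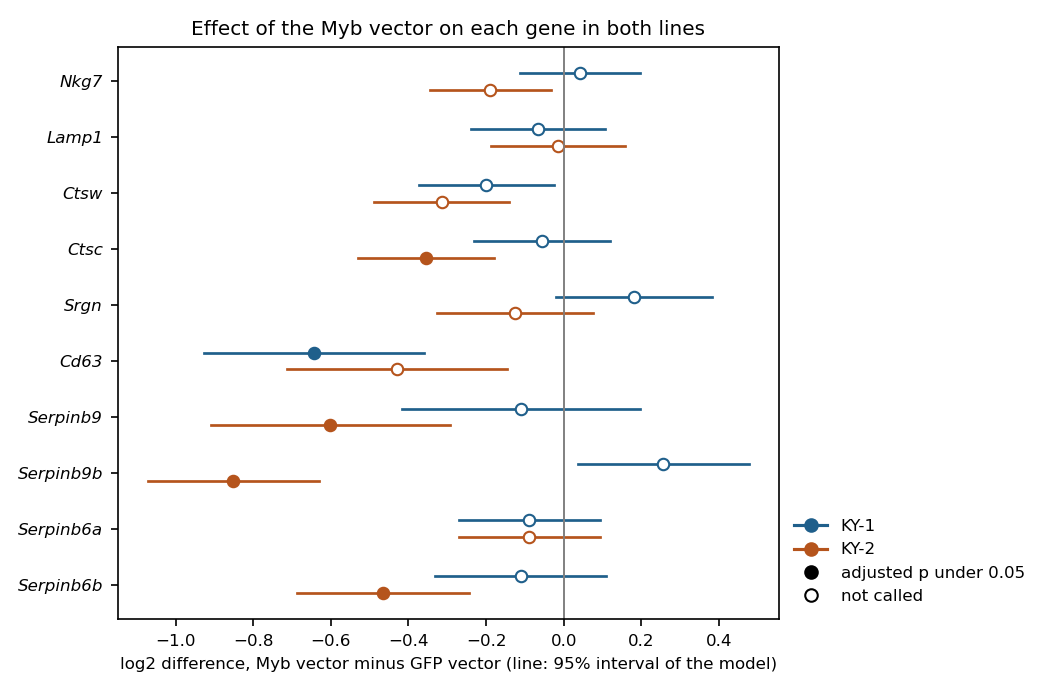
Log2 difference between Myb and GFP arrays (x axis) for each gene (y axis) in KY-1 and KY-2, with the 95% interval of the model; filled points passed an adjusted p of 0.05 over all genes. Points for KY-2 run from -0.85 for Serpinb9b to -0.01 for Lamp1, and points for KY-1 from -0.64 for Cd63 to 0.26 for Serpinb9b.

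The 4 serpins differ in the proteases they trap. Serpinb9 encodes the mouse inhibitor of granzyme B, Serpinb9b has been described as an inhibitor of granzyme M and Serpinb6b as an inhibitor of mouse granzyme A, and Serpinb6a is the relative of human SERPINB6, which inhibits cathepsin G. In KY-2, 3 of the 4 fell with Myb, where 1.55% of all genes fell, and Serpinb6a did not pass. The calls on Serpinb9 and Serpinb6b were lost without any 1 KY-2 array. In KY-1 none of the 4 passed.

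Serpinb9b had the widest Myb difference of the 10 genes in KY-2. There it read 8.26 and 8.01 with GFP and 7.34, 7.21 and 7.30 with Myb. In KY-1 it read 5.63, 5.498 and 5.53 with GFP and 5.76, 5.94, 5.67 and 5.77 with Myb, just above the array medians. So the Myb arrays were the low ones in KY-2 and the high ones in KY-1, without overlap in either line. It fell in KY-2 by 0.85 ± 0.10 log2 units (SE, limma adjusted p = 0.000763), a 1.80-fold difference, with a 95% interval of -1.07 to -0.63. In KY-1 it was at 0.26 ± 0.10 (adjusted p = 0.365), with 0.15 and 0.32 within the 2 sets of KY-1 arrays.

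The difference between the lines' Myb effects on Serpinb9b was -1.11 ± 0.14 log2 units (SE, limma adjusted p = 0.00319). It was the only call of this kind among the 10 genes, where 0.381% of all genes were lower and 0.461% higher by that test. Serpinb9b was higher in KY-2 than in KY-1 by 2.59 ± 0.11 with GFP (limma adjusted p = 1.81e-08) and by 1.478 ± 0.09 with Myb (adjusted p = 2.66e-07). Its order was therefore KY-2 GFP, KY-2 Myb and, well below, the KY-1 groups. The average over the lines, -0.30 ± 0.07 (limma adjusted p = 0.0489), joins effects of opposite sign. That averaged call was lost in 13 of 19 settings, while the KY-2 call held in all 20 and the call on the difference between the lines in all 19.

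Serpinb9, the granzyme B inhibitor, fell in KY-2. It read 9.02 and 8.90 there with GFP and 8.35, 8.41 and 8.30 with Myb. In KY-1 it read 8.87, 8.90 and 8.65 with GFP and 8.76, 8.35, 8.90 and 8.83 with Myb. The KY-1 groups overlapped, and Myb array 2 was the low one. The difference was -0.60 ± 0.14 log2 units in KY-2 (SE, limma adjusted p = 0.0463), a 1.52-fold difference, and -0.11 ± 0.14 in KY-1 (adjusted p = 0.855), and the test of one against the other gave -0.49 ± 0.20 (adjusted p = 0.41). The KY-2 call stood close to the threshold and was lost in 10 of 20 settings. Gzmb, which encodes its target protease, was at -0.05 ± 0.08 in KY-2 (adjusted p = 0.892) and -0.04 ± 0.08 in KY-1 (adjusted p = 0.916).

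Serpinb6b was the only 1 of the 10 genes called lower in KY-2 than in KY-1 with both vectors. It read 10.44, 10.41 and 10.22 with GFP and 10.28, 10.07, 10.28 and 10.30 with Myb in KY-1, and 10.02 and 9.87 with GFP and 9.42, 9.48 and 9.53 with Myb in KY-2. The KY-2 Myb arrays were the lowest of all. With Myb it fell in KY-2 by 0.47 ± 0.10 log2 units (SE, limma adjusted p = 0.0324), a 1.38-fold difference, and in KY-1 it was at -0.11 ± 0.10 (adjusted p = 0.77). The difference between the lines was -0.38 ± 0.11 with GFP (limma adjusted p = 0.0232) and -0.73 ± 0.09 with Myb (adjusted p = 7.4e-05). The first of these was lost after median centring (in 4 of 20 settings in all), and the second held in all 20.

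Serpinb6a varied little. Its means were 10.64 ± 0.05 (SD, n = 2) with GFP and 10.55 ± 0.08 (SD, n = 3) with Myb in KY-1, and 10.80 ± 0.0088 (SD, n = 2) and 10.71 ± 0.07 (SD, n = 3) in KY-2. The Myb difference was -0.09 ± 0.08 in both lines, with limma adjusted p-values of 0.78 and 0.747 and 95% intervals of -0.27 to 0.09. The lines' Myb effects on it differed by 0.00042 ± 0.12 (SE, adjusted p = 0.999), with an interval of -0.26 to 0.26.

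These serpins lie in 1 cluster on mouse chromosome 13 that holds 17 clade B entries in the RefSeq annotation of GRCm38.p6. The 17 include Serpinb1-ps1, a pseudogene by its symbol, and 13 were measured by a probe set of their own. Serpinb6b, Serpinb9 and Serpinb9b are direct neighbours in that order, and Serpinb6a lies at the far end. Of the 9 other measured genes of the cluster, 7 lay below the array medians. The exceptions were Serpinb1a, an inhibitor of neutrophil serine proteases, and Serpinb1b, which lie on either side of the 3 neighbours. Serpinb1a fell in both lines, by 0.43 ± 0.08 log2 units in KY-1 (SE, limma adjusted p = 0.0353) and 0.58 ± 0.08 in KY-2 (adjusted p = 0.00355). Serpinb1b fell on average by 0.46 ± 0.10 (adjusted p = 0.0259) but passed in neither line alone, with -0.63 ± 0.14 (adjusted p = 0.057) for KY-1 and -0.30 ± 0.14 (adjusted p = 0.393) for KY-2. Probe sets of such related genes could read a neighbouring member, which was not tested.

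**Figure D3:**
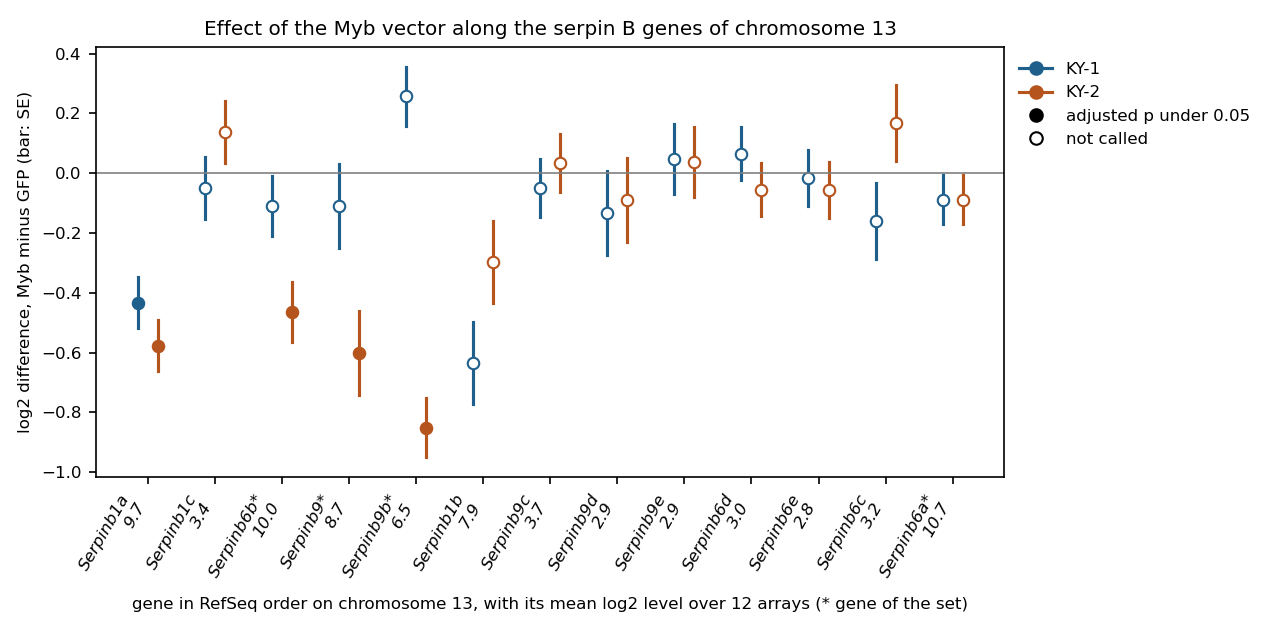
Log2 difference between Myb and GFP arrays (y axis, bars are SE) for the 13 measured clade B serpin genes in their order on chromosome 13 (x axis, with the mean log2 level under each name, and a star for the serpins described here). In KY-2 the filled points are Serpinb1a, Serpinb6b, Serpinb9 and Serpinb9b, and in KY-1 Serpinb1a alone.

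The regions upstream of Serpinb9 and Serpinb9b are shown because these genes fell together in KY-2, are neighbours, and had the most alike windows of the pairs aligned. The pair was thus chosen by that likeness. RefSeq promoter windows of GRCm38.p6 were found for 9 of the 10 genes, Ctsw being without one. The 250 bases before each start, both on the plus strand, are at chr13:33004291-33004540 for Serpinb9 and chr13:33027164-33027413 for Serpinb9b, and capitals mark runs of at least 6 aligned bases that are identical in the pair. Runs parted by a gap of the alignment can stand side by side, as near the end of the Serpinb9 window. A stretch of capitals can thus hold several runs.
Serpinb9: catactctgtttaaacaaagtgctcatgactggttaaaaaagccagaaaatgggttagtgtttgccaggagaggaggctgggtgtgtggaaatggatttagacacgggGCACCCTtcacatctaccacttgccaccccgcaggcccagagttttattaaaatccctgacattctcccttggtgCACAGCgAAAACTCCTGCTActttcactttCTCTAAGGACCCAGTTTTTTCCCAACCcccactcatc
Serpinb9b: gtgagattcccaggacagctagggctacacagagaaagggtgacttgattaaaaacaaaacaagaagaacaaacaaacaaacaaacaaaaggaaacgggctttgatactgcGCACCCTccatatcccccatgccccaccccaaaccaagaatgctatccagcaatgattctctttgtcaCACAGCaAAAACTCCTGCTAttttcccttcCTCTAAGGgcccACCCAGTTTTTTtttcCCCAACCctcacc
Of 226 aligned bases 154 were identical, or 68.1%, and the longest identical run was 13 bases. Among the 20 other pairs of the 7 genes with such an alignment the share was 49.3% to 62.2% and the longest run 5 to 9 bases. Serpinb6b, which also fell in KY-2 and is the other neighbour of Serpinb9, was within that range, at 57.8% with Serpinb9 and 52.8% with Serpinb9b. The shared runs lie mostly in the last part of both windows, next to the start. This is a description of sequence alone.

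Myb binds short sites with a core that can be written TAACNG or CAACNG. These letters were searched on both strands in windows from 250 bases before to 50 after the start. They were found in 3 of 11 windows of the 9 genes, all of Nkg7 and Srgn, and in 49.7% of all 32851 RefSeq windows of that length. The Nkg7 window held 3 matches, the most of any single window, while the 2 windows of Srgn held 2 and 1, and its 250 upstream bases at chr7:43436888-43437137 (plus strand) are shown with the matches in capitals.
Nkg7: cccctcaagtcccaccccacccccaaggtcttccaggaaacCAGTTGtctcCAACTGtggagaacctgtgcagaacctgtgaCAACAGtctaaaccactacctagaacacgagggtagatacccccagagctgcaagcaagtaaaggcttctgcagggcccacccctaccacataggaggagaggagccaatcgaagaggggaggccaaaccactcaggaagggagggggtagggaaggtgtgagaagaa
Nkg7 and Srgn did not pass the threshold with Myb in either line. The 6 genes that did pass in a line or on average were Ctsw, for which no window was searched, and Ctsc, Cd63, Serpinb9, Serpinb9b and Serpinb6b, whose windows held no match. A match in this window is not evidence of binding, and the absence of one says nothing of sites elsewhere.

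Some of the 10 genes also differed between the lines. With the GFP vector Ctsc, Srgn, Cd63 and Serpinb9b were higher in KY-2 and Serpinb6b was lower, so 5 of 10 were called. Of all genes 13.6% were higher and 15.2% lower in that comparison, which makes a call there a common event. With the Myb vector the same 4 were higher and Nkg7 and Serpinb6b were lower, where 14.7% of all genes were higher and 16.9% lower. Calls were more common still among brighter genes. In the fit of only genes with a mean above 6, 5178 of 8869 were called with GFP and 5593 with Myb. Of the genes described here 4 were called with GFP in that fit, where Cd63 was not tested. The median of the 10 genes was 0.18 with either vector, against -0.04 and -0.01 for all genes. Each such comparison shares its arrays with the Myb comparisons above.

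**Figure D4:**
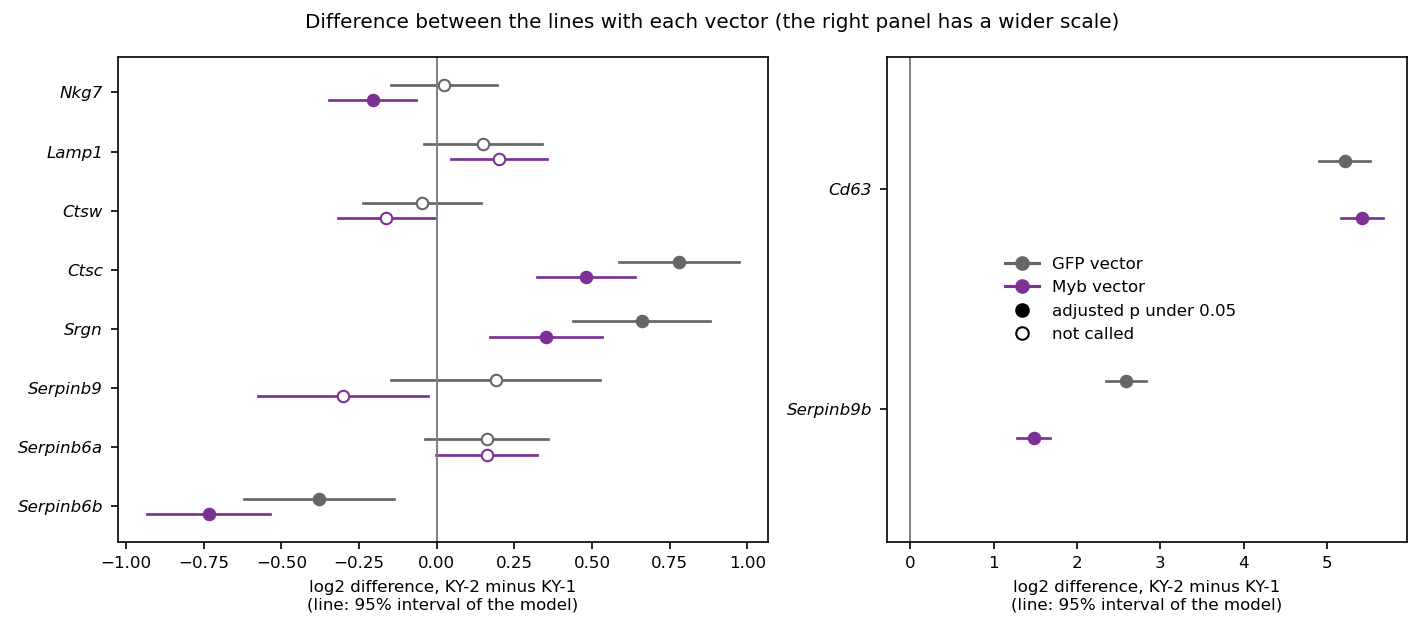
Log2 difference between KY-2 and KY-1 (x axis, with the 95% interval of the model) for each gene (y axis) with the GFP and with the Myb vector; filled points passed an adjusted p of 0.05, and the right panel has a wider scale. Cd63 is at 5.21 and 5.42, Serpinb9b at 2.59 and 1.478, and the other 8 genes lie between -0.73 and 0.78.

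Levels of other markers differed between the lines and between the vectors. Of 13 T cell markers, 3 were above a level of 8 in KY-2 (Cd3g, Cd8a and Cd28) and 0 in KY-1, and their summed linear signal was 8080 to 8640 in KY-2 with GFP, 6990 to 7340 in KY-2 with Myb, 503 to 518 in KY-1 with GFP and 577 to 640 in KY-1 with Myb. Cd3e, a defining T cell gene, was at 5.32 and 5.70 in the KY-2 groups and 6.22 and 5.80 in the KY-1 groups. The summed signal of the 16 NK cell markers, Prf1 and Gzmb included, was 20400 to 21100 with GFP and 17900 to 19100 with Myb in KY-1, and 21600 to 22200 and 18400 to 18800 in KY-2. Of 10 B cell markers, 1 was above 8 in each group (Bank1), and the B cell sum was 755 to 1130 over all groups. The sum of the 12 mast cell and basophil markers was 1500 to 1660 in the KY-1 groups and 412 to 488 in the KY-2 groups, and that of the 13 myeloid markers was 297 to 342 over all groups. Ncr1 was at 9.72 ± 0.08 (SD, n = 2) with GFP and 7.76 ± 0.18 (SD, n = 3) with Myb in KY-1. Their part in the results on the granule genes was not tested. In bulk RNA, fewer cells with a transcript and less of it per cell cannot be told apart.

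Granzymes and perforin are the cargo of the granule. In KY-2, 3 of their 11 genes fell and 0 rose, where 1.55% of all genes fell and 1.28% rose. In KY-1, 2 of the 11 rose and 0 fell, where 0.612% of all genes went each way. Prf1, the perforin gene, fell in KY-2 by 0.82 ± 0.09 log2 units (SE, limma adjusted p = 0.000484), Gzmd by 1.47 ± 0.09 and Gzmf by 0.97 ± 0.13. Gzma rose in KY-1 by 0.54 ± 0.08 and Gzmg by 1.19 ± 0.16. Gzmd went from 6.80 to 5.33 and Gzmf from 5.77 to 4.79 in KY-2, and Gzmg from 5.63 to 6.82 in KY-1. These 3 differences thus involve levels near or below the array medians, which limits what they can show. The difference between the lines' Myb effects was called for 5 of the 11 genes, all lower in KY-2, where 0.381% of all genes were lower by that test. Gzma, the protease that Serpinb6b inhibits, was at -0.16 ± 0.08 in KY-2 (adjusted p = 0.445), and Gzmm, linked to Serpinb9b, lay below the array medians in all groups (5.03 to 5.13).

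Prf1 also had the pattern closest to that of Serpinb9b. Among 566 genes with a mean above 7 and group means spanning at least 1 log2 unit, Prf1 had a Pearson r of 0.996 with Serpinb9b over the 10 replicates, followed by Lpin2 at 0.993 and Gcnt1 at 0.992. The replicates fall into 2 clusters by line, which sets most of such an r. Prf1 stood at 8.17 ± 0.07 (SD, n = 2) and 8.36 ± 0.08 (SD, n = 3) in KY-1 and at 10.43 ± 0.08 (n = 2) and 9.61 ± 0.10 (n = 3) in KY-2. Its order over the groups is thus that of Serpinb9b, with KY-2 GFP first and KY-2 Myb next. For Cd63 the closest genes were Pik3cg, Pi4ka and Spaca9, each with an r of 0.998 over the same replicates and clusters. All 3 were higher in KY-2, Pik3cg for example at 9.09 against 7.55 with GFP.

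Genes that dock and fuse granules had 0 of 29 called with Myb in KY-1. In KY-2 there were 2 calls, 1 each way, where 1.28% of all genes were higher and 1.55% lower. In KY-2 Vamp4, a SNARE, rose by 0.52 ± 0.11 log2 units (SE, limma adjusted p = 0.0367) and Sytl2, a Rab27a effector, fell by 0.34 ± 0.08 (adjusted p = 0.0443). Averaged over the lines, Coro1a, an actin regulator, fell by 0.26 ± 0.05 (adjusted p = 0.0276). The list's median was -0.02 in both lines, against -0.00 and 0.01 for all genes.

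Of 19 genes for other lysosomal cathepsins and their inhibitors, 1 fell in KY-1 (Ctsl, cathepsin L, by 0.74 ± 0.09, limma adjusted p = 0.00237) and 1 in KY-2 (Ctsd, cathepsin D, by 0.43 ± 0.09, adjusted p = 0.0347), and 0 rose in either line. Over all genes 0.612% fell in KY-1 and 1.55% in KY-2. Ctsl was at 5.48 with GFP and 4.74 with Myb in KY-1, around and below the array medians. Cst7, which encodes cystatin F, an inhibitor of cathepsin C, was at -0.28 ± 0.08 in KY-2 (adjusted p = 0.118) and was higher in KY-2 than in KY-1 by 0.82 ± 0.09 with GFP (adjusted p = 3.74e-05). The list had a median of 0.05 in the first line and 0.02 in the second.

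Lysosomal membrane and biogenesis genes, the wider group of Lamp1, had 0 of 26 called in KY-1 and 1 in KY-2, where 1.55% of all genes fell. Atp6v0a2, a subunit of the proton pump, fell there by 0.43 ± 0.08 (SE, limma adjusted p = 0.0184). With the GFP vector 13 of the 26 were higher in KY-2 than in KY-1 and 1 was lower. Of all genes 13.6% were higher and 15.2% lower there, and of 8869 genes with a mean above 6, 5178 were called either way. The list's median was 0.27 in that comparison, against -0.04 for all genes. Tetraspanins other than Cd63 had 1 of 18 higher with Myb in KY-1 (Tspan13, by 0.58 ± 0.12, adjusted p = 0.0434) and 1 higher in KY-2 (Cd82, by 0.45 ± 0.11, adjusted p = 0.0499), and none lower, where 0.612% and 1.28% of all genes rose. In KY-1 Tspan13 went from 5.52 to 6.10, starting near the array medians, and the Cd82 call stood close to the threshold. With GFP, 4 of the 18 were higher in KY-2 than in KY-1 and 3 lower. Tspan13 was higher there by 5.27 ± 0.13 (adjusted p = 3.89e-10). Tspan31 was at -2.63 ± 0.08 (adjusted p = 1.67e-09) and Cd82 at -1.69 ± 0.12 (adjusted p = 1.05e-06), both lower in KY-2.

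Enzymes that build the chondroitin sulfate chains carried by serglycin had 1 of 20 genes called in each line, Csgalnact1 in KY-1 and Ust in KY-2, against 0.612% of all genes that rose in the first line and 1.55% that fell in the second. Csgalnact1, which starts the chains, rose in KY-1 by 0.75 ± 0.12 (SE, limma adjusted p = 0.0147) and on average by 0.61 ± 0.09 (adjusted p = 0.00266), and in KY-2 it was at 0.47 ± 0.12 (adjusted p = 0.0801). Ust, a sulfotransferase, fell in KY-2 by 0.62 ± 0.12 (adjusted p = 0.0202) and on average by 0.49 ± 0.09 (adjusted p = 0.00927), at levels below the array medians, and in KY-1 it was at -0.37 ± 0.12 (adjusted p = 0.26). Both genes thus had the same sign in each line, and the lines' Myb effects on them were not told apart (adjusted p = 0.638 and 0.686). Of the 20 clade B serpins outside the set, Serpinb1a was the only 1 called in either line, lower in both, where 0.612% of all genes fell in KY-1 and 1.55% in KY-2.

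**Figure D5:**
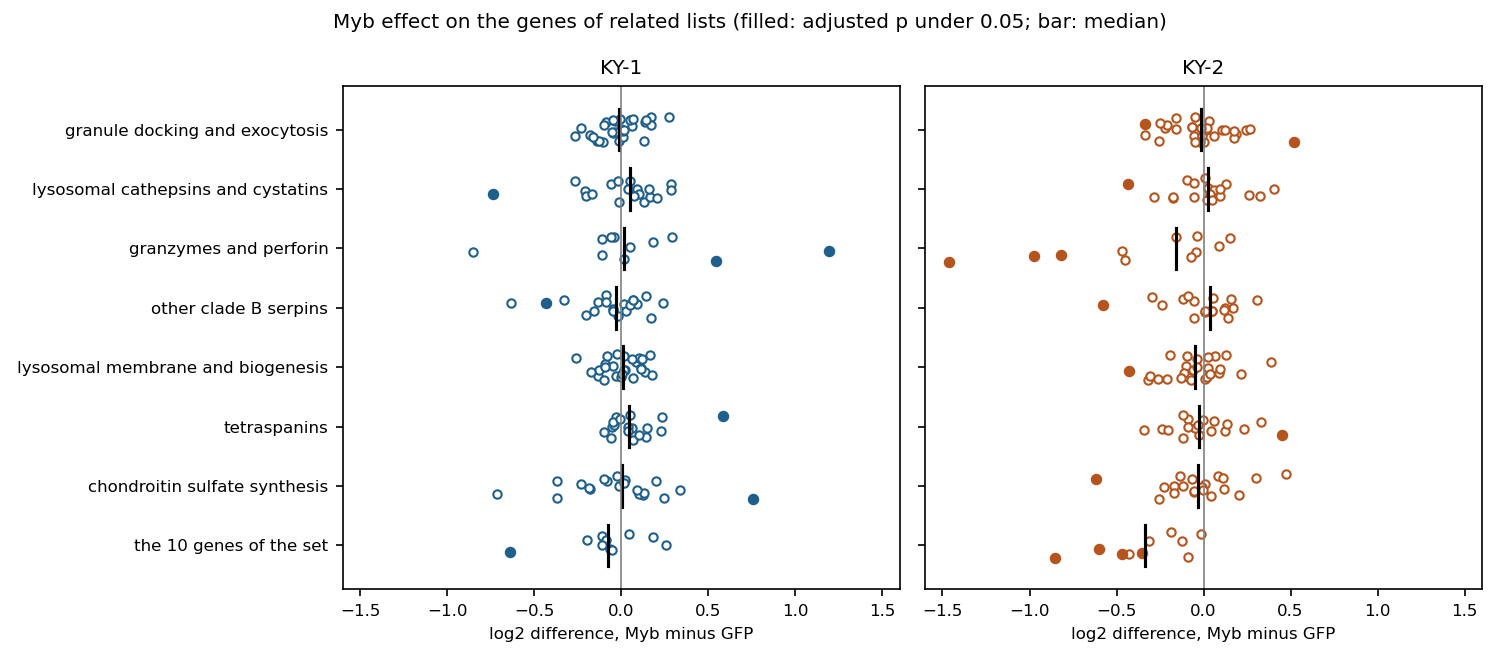
Log2 difference between Myb and GFP arrays (x axis) for the genes of 7 related lists and the 10 genes described here (y axis), in KY-1 (left) and KY-2 (right); each circle is a gene, filled where the adjusted p was under 0.05, and the bar is the list's median. The medians of the 7 lists lie between -0.16 (granzymes and perforin, KY-2) and 0.05, and that of the 10 genes is -0.08 in KY-1 and -0.33 in KY-2.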

How the data were processed

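Total RNA was measured on 12 Affymetrix arrays of the 4 groups. The authors deposited log2 values per probe set, and Partek and RMA (background correction, normalization between arrays and summary of probes) are named in the submitters' processing notes. Their versions and options were not given in the sources used here. Of 35556 probe sets, 21789 had 1 symbol, 1621 several and 12146 were not listed. The 10 genes, the related lists and the markers were chosen with earlier results of these data known. Limma 3.58.1 in R 4.3.3 fitted the 4 group means to 19938 genes without a filter, with 6 residual degrees of freedom, and p-values were adjusted by Benjamini-Hochberg across these genes at 0.05. The fit was tested on simulated data for the KY-2 comparison (19938 genes), where it recovered 100% of differences of 1 log2 unit and 63% of those of 0.5. Errors on differences are standard errors of the model, and errors on levels are SDs over replicates. The number of arrays limits the precision.

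All 10 genes were named under every comparison. Of each related list, up to 4 genes with the smallest p averaged over the lines and up to 2 in a line with a call could be named, and for the 2 genes whose group means span at least 1 log2 unit the 3 genes with the highest Pearson r. Promoter windows came from RefSeq (GRCm38.p6), and pairs were aligned with Biopython 1.88. An alignment of the serpin proteins was planned and not run.

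Alternatives were all 12 arrays as separate replicates, a replicate block, averaging all probe sets per gene, only genes with a mean above 6, a second quantile normalization, median centring, trended or robust moderation, only the groups compared, and each replicate left out. The block of KY-1 array sets was added after the data were seen.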

Additional observations from a re-analysis of the deposited data

Results flagged for a closer look

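The Myb effects of the 2 lines on Serpinb9b differed by a test of the difference itself, -1.11 ± 0.14 log2 units (SE, limma adjusted p = 0.00319, KY-2 minus KY-1, n = 2 GFP and 3 Myb replicates per line). All 3 Myb arrays lay below both GFP arrays in KY-2, and all 4 Myb arrays lay above all 3 GFP arrays in KY-1. The value ranged from -1.24 to -0.98 over 19 alternative settings, with adjusted p-values of 0.000234 to 0.0233.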

How the results depend on the processing

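Of 1174 values of the genes under alternatives, 1063 stayed on the same side of the threshold, 79 lost a call, 32 gained one and none reversed a call. Most of these values belong to comparisons without a call in the main fit, which could not lose one, so the first count is no measure of how well calls held. The count of 1 in KY-1 became 0 with only genes above 6, where Cd63 was not tested, with median centring, with only the groups compared and with the KY-1 sets as a block, and was 0 to 1 with a replicate left out. The count of 4 in KY-2 became 1 with the replicate block on all 12 arrays, 2 with only the groups compared, and 1 to 4 with a replicate left out. In KY-1 no array correlated best with its own number. Deviations of same-numbered GFP and Myb arrays correlated at -0.226, -0.36 and -0.465 there, and at -0.005 and 0.115 in KY-2. The deviations of the 2 KY-2 GFP arrays mirror each other, and in KY-1 GFP array 3 mirrors the close GFP arrays 1 and 2. These correlations thus cannot decide whether the numbers pair the arrays in either line. The count of 3 averaged over the lines became 6 with all 12 arrays as separate replicates, 5 with only genes above 6, 1 with a second quantile normalization, 1 with median centring, 6 with trended moderation, and 1 to 2 with a replicate left out. Trended moderation raised the count for the difference of Myb effects from 1 to 2 and that between the lines with Myb from 6 to 10. Where not stated, the cause was not tested. By gene, calls were lost for Ctsc in KY-2 in 15 of 20 settings, for Serpinb6b in KY-2 in 7 of 20, for Ctsw on average in 11 of 19, for Cd63 in KY-1 in 12 of 19 and for Nkg7 between the lines with Myb in 7 of 20. The calls on Cd63, Ctsc, Srgn and Serpinb9b between the lines held in every setting run. Levels near or below the array medians, as for Cd63 in KY-1, limit what a difference there can show.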
